A study of Mus musculus with 4 samples.

Results

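The peaks described here are the weaker Gata4 peaks that were called in wild-type (WT) Flk1(+) mesoderm cells, had no partner in the list of the Dnmt3a-/-Dnmt3b-/- (DKO) cells and lay far from genes. A WT peak belonged to the group if no DKO peak lay within 500 bp of its position, if the authors named no gene within 5 kb of it and if its height was under 10. Of the 20410 WT peaks, 54.4% had no DKO peak within 500 bp and 36.4% had no gene named, and 4107 peaks, 20.1% of the list, met the whole rule. The members were thus chosen by measured values, the height and the absence of a DKO peak, so the heights, enrichments and ES backgrounds below describe the members and test nothing. The study compared where Gata4 bound in mesoderm cells with and without the de novo DNA methyltransferases, and each of its 4 ChIP-seq libraries was the only library of its condition. WT Flk1(+) cells came from the clone labelled J1G4.2 and DKO Flk1(+) cells from the clone labelled 16G4.3. All 4 libraries came from J1 ES cells that carried Gata4GR, Gata4 joined to the part of the human glucocorticoid receptor that binds its ligand, so that dexamethasone (Dex) activates it, under the ubiquitous CAG promoter. Chromatin was precipitated with a mixture of 3 antibodies to Gata4. The Flk1(+) cells were differentiated on OP9 stroma cells, sorted by the receptor Flk1 and collected at day 4.5 after 3 hr of 100 nM Dex, whereas the WT ES and DKO ES controls were undifferentiated and received no Dex. The authors called the peaks of each Flk1(+) library over the ES control with the same genotype. With 1 library and 1 clone per condition, genotype, clone and library cannot be told apart, and all intervals below are 95% intervals that cover counting error within the lists only.

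Gata4 is a zinc finger transcription factor that drives genes of the heart, the mesoderm and the primitive endoderm. Its motif was searched here as WGATAA, where W stands for A or T, and in a looser form as WGATAR, where R stands for A or G. Dnmt3a and Dnmt3b place new methyl groups on cytosines of CpG dinucleotides, and most CpGs outside promoters and enhancers are methylated in differentiated cells. Sites far from genes often act as enhancers, which can lie far from the start site they act on, so that the nearest gene need not be the target.

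The members that carry the motif are shown by 7 stretches that reach 50 bases to either side of the position, on the plus strand of mm9, with each WGATAA match of either strand in capitals. The first 5 were among the members near listed genes and were picked for show after their sequences had been seen, because 2 matches fall within the bases printed. The last 2 are the member with the highest score and another of the 8 highest-scoring members, 376 bp away from it.
Wnt11 member, chr7:105948308-105948408: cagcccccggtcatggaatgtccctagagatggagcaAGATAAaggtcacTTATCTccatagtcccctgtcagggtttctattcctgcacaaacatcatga
Fgf10 member, chr13:119458895-119458995: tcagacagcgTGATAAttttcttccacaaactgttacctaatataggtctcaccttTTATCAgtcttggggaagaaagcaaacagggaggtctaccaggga
Cspg4 member, chr9:56653239-56653339: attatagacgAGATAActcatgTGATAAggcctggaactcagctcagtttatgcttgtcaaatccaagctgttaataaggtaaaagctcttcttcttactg
Acta2 member, chr19:34337275-34337375: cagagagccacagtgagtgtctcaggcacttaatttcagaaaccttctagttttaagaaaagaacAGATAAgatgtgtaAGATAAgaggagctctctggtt
Aldh1a3 member, chr7:73596640-73596740: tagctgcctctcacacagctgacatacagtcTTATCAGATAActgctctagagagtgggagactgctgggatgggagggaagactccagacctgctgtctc
Member with the highest score, chr1:118915468-118915568: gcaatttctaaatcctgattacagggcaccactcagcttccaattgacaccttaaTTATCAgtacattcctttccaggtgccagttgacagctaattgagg
Its neighbour, chr1:118915844-118915944: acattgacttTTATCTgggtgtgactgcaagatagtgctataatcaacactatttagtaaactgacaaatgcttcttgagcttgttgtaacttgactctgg
In the Wnt11 member 2 matches on opposite strands were separated by a few bases, and in the Aldh1a3 member the 2 matches shared a base. Of the 5 members with the most matches, 4, with 7 or 8 each, came from a pair of arrays, which are shown to 100 bases on either side with the same capitals.
Chromosome 9 array, chr9:46433151-46433351: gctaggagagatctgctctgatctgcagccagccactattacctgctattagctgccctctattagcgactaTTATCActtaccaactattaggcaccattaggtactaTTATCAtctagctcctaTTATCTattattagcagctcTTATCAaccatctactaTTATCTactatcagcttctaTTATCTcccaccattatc
Chromosome 6 array, chr6:7412596-7412796: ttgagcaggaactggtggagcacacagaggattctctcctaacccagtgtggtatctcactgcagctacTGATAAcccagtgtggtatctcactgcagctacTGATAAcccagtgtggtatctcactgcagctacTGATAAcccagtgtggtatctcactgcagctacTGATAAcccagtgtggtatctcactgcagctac
The chromosome 9 array held 2 members, 115 bp apart with heights of 6.44 and 6.65, and the chromosome 6 array held another 2, 97 bp apart with heights of 5.18 and 5.31. The chromosome 6 array repeats 1 stretch of bases with TGATAA at its end, and no base of these windows was in lower case, the mark of repeats in the deposited sequence. Their windows overlap, so the same matches were counted more than once. The 3 highest-scoring members without the motif had heights of 9.97, 9.92 and 9.91, and 2 of them are shown as examples of the 980 windows of that kind.
Arpp21 member, chr9:112733774-112733874: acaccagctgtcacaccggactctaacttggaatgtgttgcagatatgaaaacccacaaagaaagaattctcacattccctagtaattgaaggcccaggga
Numb member, chr12:85262865-85262965: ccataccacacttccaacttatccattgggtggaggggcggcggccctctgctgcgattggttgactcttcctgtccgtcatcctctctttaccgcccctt
The Arpp21 member, named for the nearest start site 595382 bp away, had no WGATAA and 3 CpGs in its window. The Numb member had 34 CpGs and lay 31 bp upstream of an annotated start site of Numb, an inhibitor of Notch signalling.

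The label far from genes held for most but not all members when they were set against the mm9 annotation of GENCODE, which the rule did not use. Of the 4107 members, 3617 (88.1%, 87.0% to 89.0%) lay outside every annotated gene, 441 lay in an intron and 49 in an exon. Genes of any kind lay within 5 kb of 761 members, and protein-coding genes within 5 kb of 379. The annotation named genes that the authors' list left blank, such as Numb above and Fgf10, whose annotated start site lay 347 bp from a member. The median distance to the nearest protein-coding start site was 67192 bp (quartiles 25170 and 165434 bp), and 58.7% of members (57.2% to 60.2%) lay over 50 kb from it. This share was 17.5 percentage points higher than in the weaker DKO-only peaks without a gene named (41.2%, difference 15.0 to 20) and 8.94 points higher than in the weaker shared WT peaks without a gene named (49.8%, difference 5.59 to 12.3). The difference from the strong WT-only distal peaks, 1.64 points, had an interval from -2.13 to 5.46.

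These comparison classes are used throughout. The strong WT-only distal peaks are the 771 peaks that met the rule except that their height was 10 or more. The shared distal peaks are 1073 WT peaks of height under 10 with no gene named and a DKO peak within 500 bp. The DKO-only distal peaks are 2378 peaks of the DKO list with no WT peak within 500 bp, no gene named and a height under 10. The weaker WT-only peaks with a gene named are the 5285 peaks that met the rule except that a gene was named within 5 kb. Whether heights are scaled alike in the WT and DKO lists is not known, so a common height limit may not mean a common depth of signal. The study states more reads for the DKO than for the WT Flk1(+) library, and this difference in depth cannot be told apart from genotype in what either list holds.

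Members ranged in height from 5.00, the authors' threshold, to the limit of the rule, with a median of 6.39 (quartiles 5.57 and 7.60). In the WT ES library the profile at the same places had a median of 1.31 (quartiles 0.934 and 1.68), and the highest was 3.23. The ES background was below 1 at 1208 members, where the authors took it as 1 in the enrichment. The enrichment over ES ranged from 3.00 to 9.97 with a median of 4.86. By the authors' ranking of all WT peaks, members stood between place 2729 and place 20403, and 1728 of them (42.1%) stood in the top 50% of the list. The members just inside the height limit had heights of 9.99863, 9.98544 and 9.9785, and the peaks just outside it had 10.0078, 10.008 and 10.0098. The nearest DKO peak lay at a median of 38509 bp (quartiles 11960 and 118773 bp). It lay within 1 kb of 107 members and between 1 and 5 kb from 429. The members nearest the distance limit had a DKO peak at 502 bp or less, and the peaks just outside it at 496, 492 and 492 bp. The lists hold no height of the DKO library at a place where no DKO peak was called, so by how much the signal differed there is not given.

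The Gata motif was present in most members. WGATAA occurred in 3127 of 4107 windows that reach 250 bp to either side of the position, 76.1% (74.8% to 77.4%), against 44.2% of the 8211 windows of equal length centred 2 kb to either side. The difference was 32.0 percentage points (30.3 to 33.6). Within 50 bp of the position it was found in 47.6% of members against 11.8% of flanking windows, a ratio of 4.03. The strong WT-only distal peaks held it more often, in 86.4%, and the members stood 10.2 points below them (-10.2, interval -12.8 to -7.34). The shared distal peaks held it less often, in 69.8% (difference 6.33 points, 3.35 to 9.42), and the DKO-only distal peaks in 48.8% (difference 27.3 points, 24.9 to 29.7). Flanking windows of the DKO-only distal peaks held it in 39.4%, so that part of the 27.3 points was also present beside the peaks, where the difference was 4.79 points (3.03 to 6.54). The weaker WT-only peaks with a gene named held it in 61.9%, 14.3 points (12.4 to 16.1) below the members. Base composition moved with these classes, since the median G+C content was 46.9% in members, 49.8% in DKO-only distal and 49.5% in weaker WT-only peaks with a gene named, and its part in the differences was not tested. Windows of 354 members overlapped that of another member, and with 1 member kept for each group of overlapping windows the share was 76.3% of 3924.

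**Figure D1:**
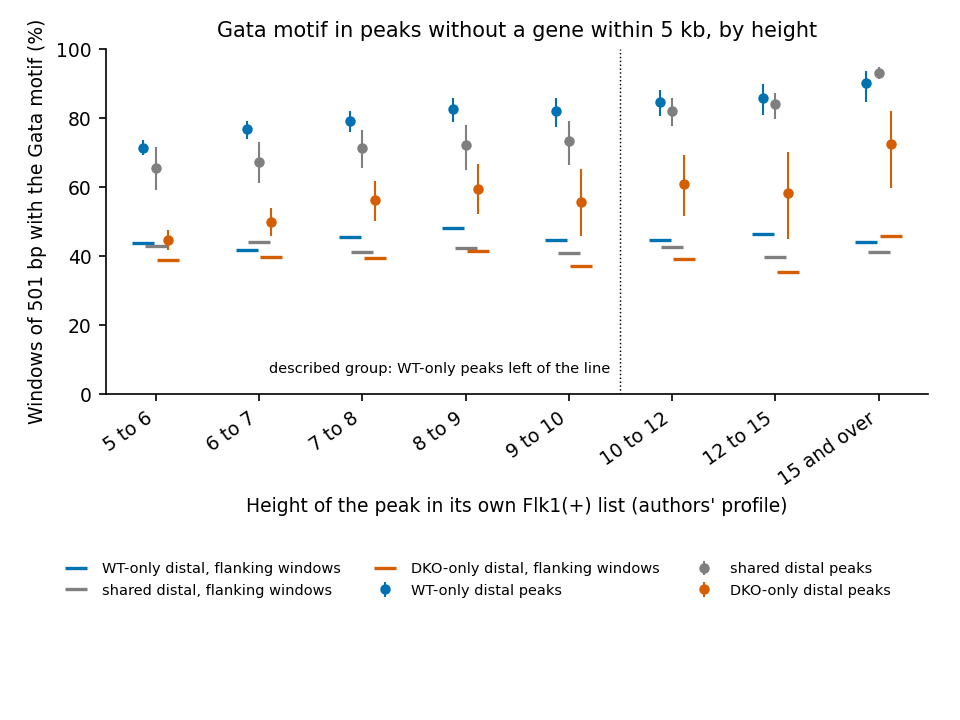
The share of windows (250 bp to either side) with the Gata motif (y axis, %) is plotted against the height of the peak in its own Flk1(+) list (x axis, classes of height) for WT-only, shared and DKO-only peaks with no gene named. Points are shares with 95% Wilson intervals and short bars are the flanking windows, and the WT-only peaks left of the dotted line, at 71.4% to 82.6%, lie above the DKO-only peaks of the same height class, at 44.7% to 59.5%.

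The share with the motif was higher at greater height inside the group. It was 71.4% (69.2% to 73.6%) of the 1627 members with heights from 5 to 6, 76.8% from 6 to 7, 79.2% from 7 to 8, 82.6% from 8 to 9 and 82.0% (77.5% to 85.8%) of the 328 members from 9 to 10. WT-only distal peaks of height 15 and over held it in 90.1%. Flanking windows stayed between 41.7% and 48.2% in all of these classes. In classes of equal height the members held the motif more often than DKO-only distal peaks by 23.0 to 27.0 points, and all 5 intervals excluded 0. They exceeded the shared distal peaks by 5.81 to 10.6 points, and the interval held 0 only in the class from 5 to 6 (-0.548 to 12.6). The motif also moved with the other values of a member. In the 1027 members with the highest enrichment it occurred in 84.1% and in the 1027 with the lowest in 67.9%, a difference of 16.3 points (12.6 to 19.9). Members whose nearest DKO peak lay at 118852 bp or more held it in 83.9%, and the 1027 with the nearest DKO peaks, at up to 11959 bp, in 66.7%, a difference of 17.2 points (13.6 to 20.9).

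**Figure D2:**
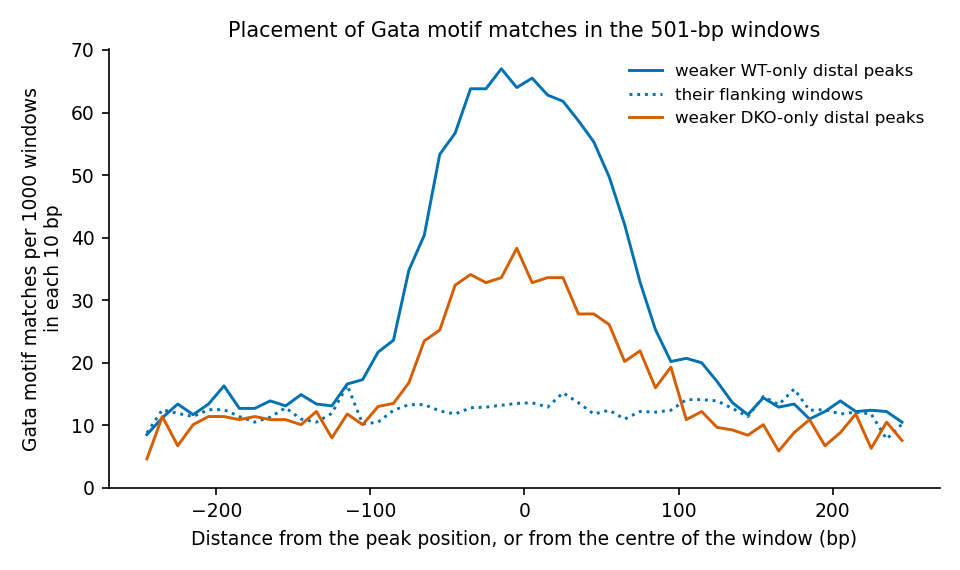
Matches of the Gata motif per 1000 windows in each 10 bp (y axis) are plotted against the distance from the peak position, or from the centre of a flanking window (x axis, bp). The line of the members reaches 67.0 near the position and falls to about that of their flanking windows beyond 150 bp, and the line of the DKO-only distal peaks reaches 38.3.

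Matches lay close to the position the authors gave. Of the 5641 matches in members, 2544 were centred within 50 bp of it, 45.1% (43.8% to 46.4%), where even placement gives 20.2% and the flanking windows gave 21.3%. The nearest match was centred at a median of 35.5 bp from the position (quartiles 15.5 and 63.5 bp). The profile was broad, with 9.43% of matches within 10 bp. Members held 0 matches in 980 windows, 1 in 1478, 2 in 1023, 3 in 451 and 4 or more in 175. Windows with at least 2 matches made up 40.2% of members and 13.5% of flanking windows. Among the 1649 members with at least 2 matches, the starts of the closest pair lay at a median of 60.0 bp, against 100 bp in flanking windows, and 18.5% of pairs lay within 20 bp. The closest pair was on the same strand in 53.7% of members and in 54.9% of flanking windows with a pair.

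The form of the motif was uneven. Within 50 bp of the position AGATAA occurred in 32.7% of members against 6.47% of flanking windows, a ratio of 5.05, and TGATAA in 20.2%, a ratio of 3.47. AGATAG occurred in 9.69% (ratio 1.83) and TGATAG in 6.60% (ratio 1.86). The other forms were examined after the data had been seen. GGATAA and CGATAA were also above the flanks (ratios 1.43 and 1.85), and none of the 8 forms ending in C or T was, with AGATAT at a ratio of 0.817 and GGATAT at 0.519. The base after the motif was G at 47.0% of the central matches and at 21.2% of matches in flanking windows, so that AGATAAG and TGATAAG prevailed, and the base before it was T at 14.5% against 22.5%. These base shares were not tested.

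The 980 members without WGATAA were lower and richer in CpG than the others. Their median height was 6.08 against 6.50, their median G+C content 50% against 46.1%, and 27.4% of them held 10 or more CpGs in the window against 12.4% of members with the motif, a difference of 15.1 points (12.1 to 18.2). The related forms AGATAG or TGATAG occurred within 50 bp of the position in 17% of them, against 8.14% of flanking windows that also lacked WGATAA (difference 8.90 points, 6.53 to 11.5). Over the whole window any GATA was slightly rarer in them than in such flanks, at 80.4% against 83.7% (difference -3.34 points, -6.14 to -0.734). The CTCF-type letters AGGGGGC were more frequent in members without WGATAA, at 11.2% against 6.14% (difference 5.08 points, 3.05 to 7.36).

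Of the 17 other motifs searched, the T-box motif had the highest ratio of members to flanking windows. T-box factors such as Brachyury (T), Eomes and Tbx5 pattern the primitive streak, the mesoderm and the heart. AGGTGTGA, searched on both strands, occurred in 257 members, 6.26% (5.56% to 7.04%), and in 2.24% of their flanking windows, a ratio of 2.79 and a difference of 4.02 points (3.24 to 4.85). Within 50 bp of the position it occurred in 2.46% against 0.426%. In the DKO-only distal peaks it occurred in 43 of 2378, 1.81%, which lies 4.45 points (3.51 to 5.36) below the members and did not exceed their own flanks (2.55%). In the shared distal peaks it occurred in 3.17%, 3.09 points below the members (1.68 to 4.28). The strong WT-only distal peaks held it in 7.26%, and the difference from the members had an interval from -3.17 to 0.800. The weaker WT-only peaks with a gene named held it in 5.47%. By height the share was 5.72% of WT-only distal peaks from 5 to 6, 6.54% from 6 to 8 and 6.77% from 8 to 10, against 1.69%, 2.08% and 1.48% of the DKO-only distal peaks. Of 276 T-box matches in members, 38.8% were centred within 50 bp of the position, against 19.9% of the 186 in flanking windows. Members without WGATAA held the T-box motif in 7.04% and those with it in 6.01%, and the interval of that difference held 0 (-0.663 to 2.97). Across all WT peaks it occurred in 4.60% and across all DKO peaks in 2.06%. The members near Tbx5 and Esrrb show it, with T-box and WGATAA matches in capitals.
Tbx5 member, chr5:120246564-120246764: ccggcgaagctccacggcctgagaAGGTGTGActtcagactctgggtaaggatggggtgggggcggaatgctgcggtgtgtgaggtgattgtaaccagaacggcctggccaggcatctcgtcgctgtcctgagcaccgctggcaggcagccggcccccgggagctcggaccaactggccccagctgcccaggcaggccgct
Esrrb member, chr12:87659096-87659296: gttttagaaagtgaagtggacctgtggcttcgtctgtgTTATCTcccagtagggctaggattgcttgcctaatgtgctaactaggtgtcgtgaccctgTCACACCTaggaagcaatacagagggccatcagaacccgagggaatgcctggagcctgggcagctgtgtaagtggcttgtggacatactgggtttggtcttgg
In the Tbx5 member the T-box motif read AGGTGTGA and was centred 72.5 bp from the position. In the Esrrb member it read TCACACCT on the plus strand and was centred 1.5 bp from the position, and a WGATAA match lay to its left.

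**Figure D3:**
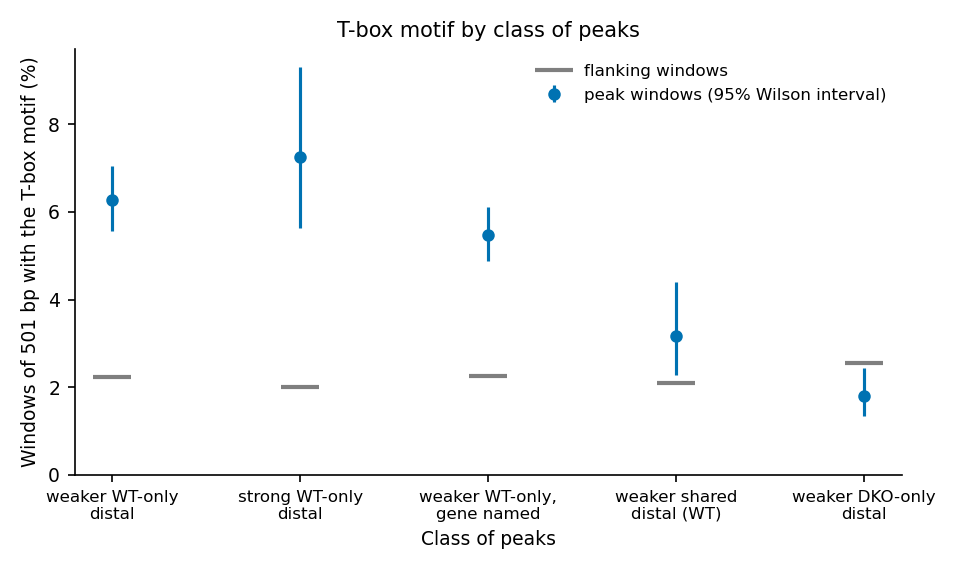
The share of windows (250 bp to either side) with the T-box motif (y axis, %) is plotted for 5 classes of peaks (x axis), as points with 95% Wilson intervals, with the flanking windows of each class as bars. The 3 WT-only classes lie at 5.47% to 7.26%, all above their flanking windows, and the DKO-only distal peaks at 1.81% lie at or below theirs.

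Of the 17 listed motifs other than Gata, 9 were more frequent in members than in their flanking windows, 1 was less frequent and 7 had an interval that held 0. The Meis motif TGACAG, bound by homeodomain factors that act with Hox proteins, occurred in 39.5% against 31.2% (difference 8.32 points, 6.52 to 10.1). The TEAD motif GGAATG, bound by the factors of the Hippo pathway, occurred in 33.6% against 26.3% (7.30 points, 5.57 to 9.03). AP-1, searched as TGANTCA, occurred in 21.1% against 15.3%, and the Ets motif AGGAAGT, of the family that includes many endothelial regulators, in 16.2% against 12.3%. The Tal1-type E-box CATCTG, of blood and endothelial bHLH factors, occurred in 37.7% against 34.1% (3.55 points, 1.76 to 5.36). The octamer ATGCAAAT, bound by the pluripotency factor Oct4, was rarer in members, at 2.78% against 3.65% (difference -0.878 points, -1.51 to -0.208). The glucocorticoid response element ACANNNTGT, letters for the receptor whose other part was fused to Gata4, occurred in 16.1% against 15.5%, with an interval of the difference from -0.786 to 1.95, but within 50 bp of the position it was more frequent in members, at 4.19% against 3.00% (difference 1.19 points, 0.50 to 1.93). The E-box CANNTG, Sox, Hox-Pbx, CRE, Nkx and Mef2 letters also had intervals that held 0 over the whole window. Within 50 bp of the position CANNTG occurred in 45.7% of members against 42.5% of flanking windows (difference 3.26 points, 1.4 to 5.12) and Nkx in 1.68% against 1.19% (0.487 points, 0.0510 to 0.976), while the intervals of Sox, Hox-Pbx, CRE and Mef2 again held 0. Against the DKO-only distal peaks, the members were higher for 6 motifs and lower for 4. Besides T-box, the higher ones included Meis (6.69 points, 4.27 to 9.08), Tal1-type E-box (3.82, 1.39 to 6.21), TEAD (3.00, 0.642 to 5.34) and Nkx (2.06, 0.880 to 3.18). The lower ones were Ets (-4.02, -6.01 to -2.07), CTCF (-2.78, -4.27 to -1.36), AP-1 (-2.73, -4.87 to -0.633) and CRE (-0.542, -1.03 to -0.160). Against the strong WT-only distal peaks 16 of 17 intervals held 0, and Ets was the exception at 2.81 points (0.00209 to 5.31). The intervals were not adjusted for the number of motifs and classes compared, so those with a bound close to 0 carry little weight. A match is a description of letters and no evidence that the factor was bound.

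**Figure D4:**
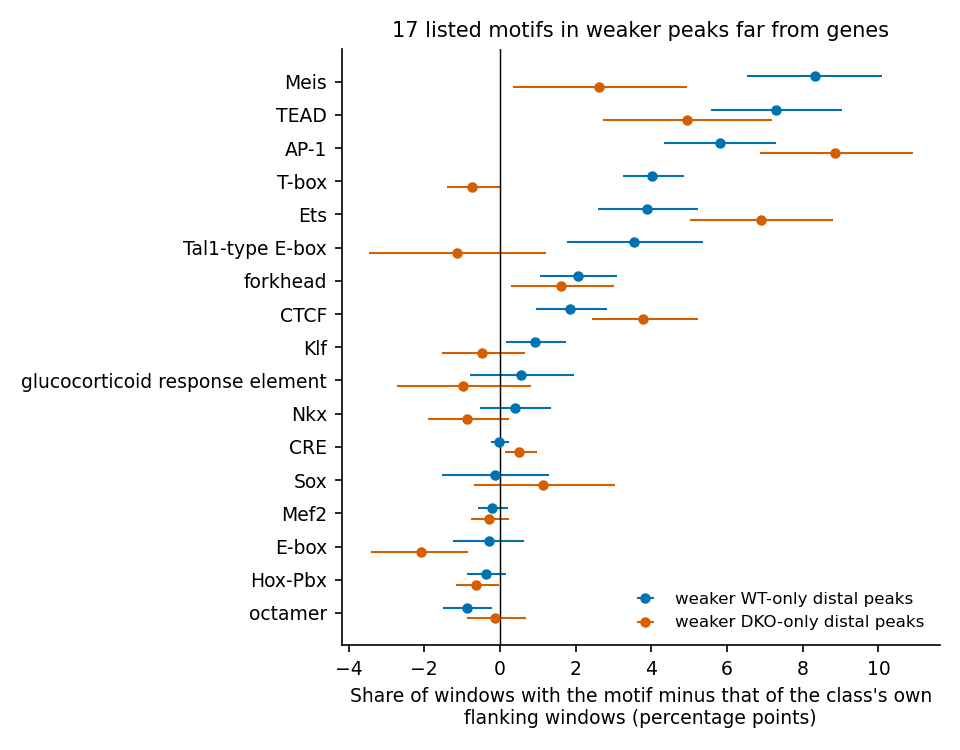
For each of 17 listed motifs (y axis) the share of windows (250 bp to either side) with a match minus the share of the class's own flanking windows (x axis, percentage points) is plotted for members and DKO-only distal peaks, with 95% Newcombe intervals. T-box lies at 4.02 in members and at -0.738 in DKO-only distal peaks, while AP-1 and Ets lie above 0 in both classes.

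Members were poorer in CpG than the other weaker peaks and richer than the sequence beside them. The median was 5 CpGs per window (quartiles 3 and 8), against 4 in flanking windows, 7 in shared distal and 8 in DKO-only distal peaks. No CpG lay within 50 bp of the position in 1486 members, 36.2% (34.7% to 37.7%). The share was 45.7% in their flanking windows, 26.1% in the shared distal peaks (difference 10.1 points, 7.01 to 13.0) and 23.7% in the DKO-only distal peaks (difference 12.5 points, 10.2 to 14.7). In the strong WT-only distal peaks it was 39.8%, and the interval of the difference held 0 (-7.42 to 0.0696). Part of these differences was also present beside the peaks. Flanking windows of members exceeded those of DKO-only distal peaks by 4.73 points (2.96 to 6.49). They exceeded those of shared distal peaks by 2.83 points (0.469 to 5.18). At the other end, 16.0% of members held 10 or more CpGs in the window, against 39.4% of DKO-only distal peaks (difference -23.5 points, -25.7 to -21.2), 33.5% of shared distal peaks and 34.1% of the weaker WT-only peaks with a gene named. In flanking windows the shares were 8.29% for members, 11.5% for DKO-only distal and 8.63% for shared distal peaks. For the weaker WT-only peaks with a gene named the flanking share was 16.5%. Beside the motif itself a CpG was found less often in members than in DKO-only and shared distal peaks. In members 18.0% of the 2544 central WGATAA matches had a CpG within 10 bp, against 23.6% in DKO-only distal peaks (difference -5.55 points, -8.98 to -2.31) and 23.9% in shared distal peaks (-5.90 points, -10.00 to -2.11). In strong WT-only distal peaks the share was 16.9% (1.14 points, -2.17 to 4.18) and in weaker WT-only peaks with a gene named 20.1% (-2.10 points, -4.28 to 0.0733), and both intervals held 0. Methylation of these CpGs was not measured in the lists. The position lay in lower-case sequence, which marks repeats and low-complexity sequence in the deposited windows, in 22.0% of members, against 24.3% of DKO-only distal and 14.2% of weaker WT-only peaks with a gene named. Members in such sequence held WGATAA in 79.5% and the others in 75.2%.

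Members had another peak of their own list within 10 kb less often than 3 of the 4 comparison classes, with peaks of overlapping windows counted. Another WT peak lay within 10 kb of 1576 members, 38.4% (36.9% to 39.9%). The share was 51.0% in shared distal peaks (difference -12.6 points, -15.9 to -9.26), 43.6% in weaker WT-only peaks with a gene named (-5.18, -7.18 to -3.18), 42.6% in DKO-only distal peaks within their own list (-4.27, -6.75 to -1.79) and 40.5% in strong WT-only distal peaks (-2.09, -5.90 to 1.63). The lower quartile of the distance to another WT peak was 452 bp in shared distal peaks and 3647 bp in members. Whether the differences hold for separate sites was not tested. A WT peak of height 10 or more lay within 10 kb of 660 members, and a WT peak with a DKO partner within 10 kb of 619. Another WT peak lay within 500 bp of 408 members, and in 11 of these cases it was a peak with a DKO partner. The rule itself keeps the 11 low, since it bars a DKO peak within 500 bp of a member. When members were chained if each lay within 20 kb of the next, 2735 stood alone, 494 pairs and 96 runs of 3 were formed, and 8 runs held 5 or more. The 3 densest runs held 5 members each, but each run includes members whose windows overlap, so the separate places are fewer. The run on chromosome 1 from 156878196 to 156897654 had heights of 7.38, 5.80, 7.17, 6.0 and 5.79. Its nearest protein-coding start site was that of Ier5, an immediate early response gene, at 49112 to 68570 bp. All 5 WT peaks in the run were members, and no DKO peak lay between them. The run on chromosome 4 from 31829334 to 31849511 had heights of 5.10, 7.14, 5.19, 7.17 and 7.60 and likewise no DKO peak. Its nearest protein-coding start site, 201561 to 221738 bp away, was that of Map3k7, the kinase TAK1 of TGF-beta signalling. In this run 2 of 5 members held WGATAA, and the other 3 lay between 31849099 and 31849511 with overlapping windows. The other run on chromosome 4, from 87344743 to 87365629, had heights of 5.21, 6.12, 7.21, 5.44 and 9.23, and 4 of its 5 members held the motif. Its nearest protein-coding start site, 313639 to 334525 bp away, was that of Mllt3, a transcriptional elongation factor subunit.

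Members lay near several regulators of the early mesoderm and heart and near several growth factor signalling genes. Of 29 cardiac and early mesoderm regulators, 14 had a member within 100 kb of the start site, and of 20 growth factor signalling genes 11 did, against 4314 of all 22225 protein-coding genes (19.4%). The counts were 5 of 20 blood and vessel regulators, 8 of 27 endoderm genes, 6 of 17 pluripotency genes and 4 of 12 smooth muscle and mural cell genes. Of the 94 genes that the study listed as hyper-responsive to Gata4 in DKO cells by other measurements, 92 could be placed and 27 of them had a member within 100 kb. DKO-only distal peaks lay within 100 kb of 14 of the 29 cardiac genes, 9 of the 20 signalling genes, 13 of the 20 blood and vessel genes and 17.6% of all protein-coding genes. They also lay within 100 kb of 6 of the 27 endoderm, 5 of the 17 pluripotency, 0 of the 12 smooth muscle and 21 of the 92 hyper-responsive genes. List genes may differ from other genes in the length of gene-poor sequence around them, which was not measured, and no test of the lists was made.

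Hand1, a bHLH factor of the heart, the lateral mesoderm and the trophoblast (chromosome 11, 57642207 to 57646320, minus strand), had 8 members within 100 kb of its start site, all upstream, among 17 WT and 9 DKO peaks. Their heights were 8.38, 5.77, 7.24, 9.11, 7.07, 9.82, 9.09 and 9.67 in order of distance from 14879 to 96927 bp, with ES backgrounds from 0.893 to 3.20. Of these, 2 held WGATAA and the farthest 3 held the T-box motif, although the windows of a pair among these 3 overlap. The windows of the members at 43614 and 43824 bp overlap as well, so the separate places are fewer than the members. Eomes, a T-box factor of the primitive streak and cardiac mesoderm (chromosome 9, 118387330 to 118395250, plus strand), had 6 members upstream of its start site, among 13 WT and 3 DKO peaks. Their heights from the farthest to the nearest were 6.05, 9.01, 6.87, 9.41, 9.97 and 5.33, and 5 of the 6 held WGATAA. The 2 highest lay 122 bp apart about 33 kb upstream. Tbx5, a T-box factor of the heart and forelimb, had 3 members upstream with heights of 6.42, 8.96 and 8.02, and all 3 held WGATAA.

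Among the signalling genes, Jag1, a Notch ligand of vessels (chromosome 2, 136907192 to 136942380, minus strand), had 5 members between 37627 and 94546 bp upstream with heights of 7.22, 6.93, 7.85, 9.92 and 7.49, among 10 WT and 2 DKO peaks. Fgf10, a growth factor of the second heart field and the lung (chromosome 13, 119458598 to 119580922, plus strand), had 4 members with heights of 8.03, 6.14, 5.62 and 9.10. The highest of these lay in an intron 347 bp downstream of the annotated start site, held 3 WGATAA matches and had an ES background of 0.949. Wnt11, a ligand of non-canonical Wnt signalling that acts in heart formation, had a member 35264 bp upstream with a height of 8.59, an ES background of 1.16 and 3 matches. Bmp2, which was picked after its values had been seen, was the nearest protein-coding gene to 12 members, as were Efnb2 and Sox9, and only Gm17350 with 14 had more.

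In the blood and vessel list, Kdr, which encodes Flk1 and served to sort the cells, had 3 members among 20 WT and 12 DKO peaks within 100 kb, with heights of 5.00, 8.69 and 6.77. Lmo2, a partner of Gata and Tal1 in blood, had 3 with heights of 7.5, 8.99 and 5.61. Hhex, a homeobox gene of endoderm and vessels, had 3 with heights of 5.45, 6.26 and 5.99. The Hhex members of heights 6.26 and 5.99 lay 162 bp apart with overlapping windows. Of the smooth muscle and mural cell genes, Acta2, smooth muscle actin, had a member 7499 bp upstream with a height of 7.08, an ES background of 1.20, 4 WGATAA matches and 1 CpG in its window. Rgs5, a marker of pericytes, had 3 members and a highest height of 9.16, and Cspg4, the pericyte proteoglycan NG2, had 1 with a height of 9.63 and 3 matches. Endoderm genes with the highest-scoring members were Lamb1, a laminin chain of the basement membrane made by primitive endoderm (height 9.41, 79081 bp upstream), Apoa1, an apolipoprotein (8.09, 99459 bp downstream), and Krt18, a keratin of simple epithelia (5.88, 50875 bp upstream), a member that also lay 27001 bp downstream of the start site of its partner keratin Krt8. Of the pluripotency genes, Fgf4 had a member 52959 bp upstream with a height of 7.36 and 4 matches, Esrrb had 1 with a height of 7.23 and Klf5 had 1 with a height of 5.88. Of the hyper-responsive genes, Adora3, Sh2d4a and Aldh1a3 had the highest-scoring members, with heights of 9.36, 8.05 and 7.43.

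Members were spread over all chromosomes, at 1.63 per Mb over the autosomes. Chromosome 11 held the most per length, with 341 members and 2.80 per Mb, followed by chromosome 8 with 311 and 2.36 per Mb, and the other autosomes held between 1.22 and 1.90. Chromosome X held 83 members, 0.498 per Mb, and chromosome Y held 1. All peaks were sparse on chromosome X, at 2.02 per Mb in the WT and 1.48 in the DKO list. On chromosome 11 all WT peaks were dense, at 19.1 per Mb. Chromosome 8 held 10.4 WT peaks per Mb. Its DKO-only distal peaks were dense as well, at 2.24 per Mb against 0.952 over the autosomes. Of the WT peaks with no gene named, members made up 55.7% (51.8% to 59.6%) on chromosome 11. The share was 48.1% (44.3% to 52.0%) on chromosome 8 and 61.9% (53.5% to 69.7%) on chromosome X. The median ES background of members was 1.55 on chromosome 8, 0.801 on chromosome X and between 1.19 and 1.44 on the other autosomes, and the part of this background in the counts was not tested.

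**Figure D5:**
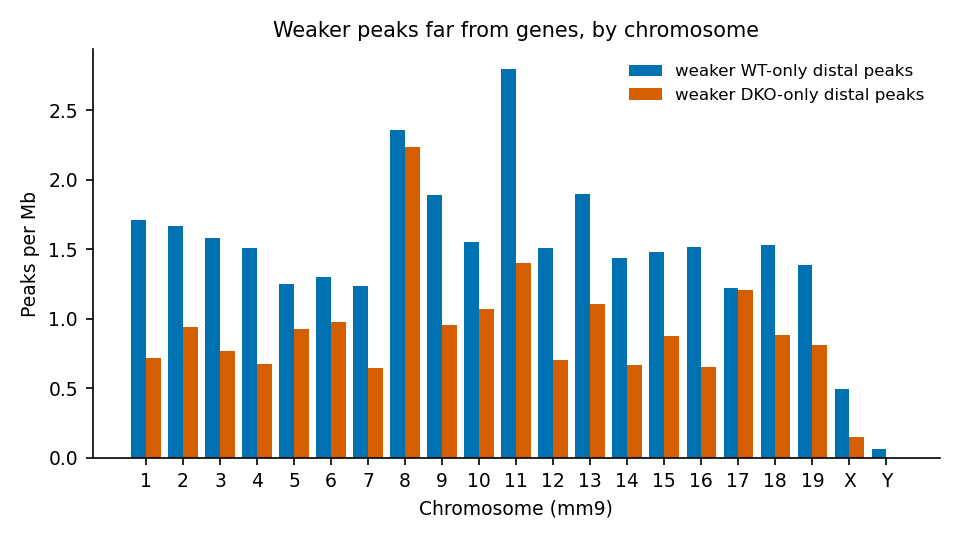
Peaks per Mb of mm9 sequence (y axis) are plotted for each chromosome (x axis), for members and for DKO-only distal peaks. Bars are counts divided by chromosome length, and chromosomes 11 and 8 stand highest for members at 2.80 and 2.36 per Mb, while chromosome 8 stands highest for DKO-only distal peaks at 2.24.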

How the data were processed

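Gata4 ChIP-seq peaks of WT and DKO Flk1(+) cells were analysed. The authors called the deposited peaks with DNAnexus on mm9 at a kernel density bandwidth, height and enrichment threshold of their choice (CASAVA 1.8.1 and cutadapt in the submitters' notes), and the aligner and the treatment of duplicate reads are not given in the sources used here. Per the file headers, each peak has a height in the Flk1(+) and in the ES profile, a signal whose scaling is not stated, their ratio as the authors' enrichment, the −log10 of the authors' q-value and the authors' rank, used here as the score. Each list was taken as WT or DKO from its number of peaks, since no header names the cells. The names under which the lists were deposited give the same genotypes. Read depth is not in the lists, and no interval covers it. The study states more reads for the DKO than for the WT Flk1(+) library, a difference that was not corrected for here.

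Peaks were counted once each, although the lists repeat a peak for each gene named. The 501-bp windows of all 4107 members equalled the mm9 reference at their positions. Motifs were searched on both strands in these windows and in reference windows centred 2 kb to either side. Shares carry 95% Wilson and differences 95% Newcombe intervals, and a difference was called where its interval excluded 0. Many intervals were read, and none was adjusted for their number. Peaks of a list are not replicates, and no test between conditions was possible. Genes came from GENCODE vM1. The members and lists were chosen with earlier results of these data known. The members named were the 8 highest by score, the 5 with most WGATAA matches, the 3 highest-scoring without it, the 3 densest runs, those nearest the height limit and, for each gene list, the highest-scoring members of up to 3 genes. Other GATA forms, T-box classes and overlapping windows were examined only once results were known. The steps were tested on simulated data of 2400 peaks and 2000 windows and recovered what was put in. Tools were Matplotlib 3.10.9, pysam 0.24.0, pandas 2.3.3, SciPy 1.17.1, NumPy 2.4.6 and Python 3.11.15. Other overlaps, heights, motifs, windows, scores and distances were tried as alternatives.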

Additional observations from a re-analysis of the deposited data

How the results depend on the processing

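Libraries could not be paired because each condition had 1 library and the labels carry no replicate numbers, and no library could be left out. Members and their flanking windows were compared as independent shares, without pairing each member with its own windows. The differences in WGATAA share from flanking windows, strong WT-only, shared and DKO-only distal peaks, and that in CpG-free centres from DKO-only distal peaks, kept their sign and an interval that excluded 0 under each alternative run for them. The other differences were not rerun, apart from those in T-box share. With peaks in the top 50% of each list by score, 1728 members remained, WGATAA occurred in 81.7% of them, 47.5% of matches were central, 28.7% had another WT peak of that ranking within 10 kb and 61.4% lay over 50 kb from a protein-coding start site. With the looser WGATAR, 86.0% held the motif and 40% of matches were central, and within 100 bp of the position 65.7% held WGATAA. No CpG lay within 25 bp of 57.3% of members and within 100 bp of 16.6%. Another WT peak lay within 5 kb of 29.0% and within 20 kb of 51.1%, and 41.6% lay over 50 kb from the start site of any annotated gene. With DKO peaks excluded within 100 bp to 1000 bp, the number of members ran from 4417 to 4000, and under a height of 8 it was 3324. With 200 kb in place of 100 kb, a member was near 34.8% of all protein-coding genes, 22 cardiac, 14 signalling, 10 blood and vessel, 13 endoderm, 10 pluripotency, 4 smooth muscle and 45 hyper-responsive genes. With 50 kb it was near 9.97% of all protein-coding genes and 11, 9, 3, 4, 4, 1 and 16 of these lists in the same order. The T-box differences from flanking windows, DKO-only and shared distal peaks kept an interval above 0, and that from strong WT-only distal peaks an interval that held 0, in the 3 alternatives added after the data were seen.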
